A study of Saccharomyces cerevisiae with 18 samples.

Results

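The genes described are 10 of the 6612 transcripts measured in the budding yeast Saccharomyces cerevisiae. They were taken by name and comprise 4 pairs of isoforms and 2 regulators. The pairs are cytochrome c (CYC1, YJR048W, and CYC7, YEL039C), subunit 5 of cytochrome c oxidase (COX5A, YNL052W, and COX5B, YIL111W), the translation factor eIF5A (HYP2, YEL034W, and ANB1, YJR047C) and the mitochondrial ADP/ATP carrier (PET9, YBL030C, and AAC3, YBR085W). HAP1 (YLR256W) and ROX1 (YPR065W) encode the regulators. Messenger RNA was sequenced from 18 cultures, 3 per group, in 6 groups. YJM975, a strain isolated from a patient, was grown in synthetic medium with 2% ethanol, 2% glycerol or 2% glucose. RM11, a strain derived from a vineyard isolate, was grown in the same 3 media. All cultures were homozygous diploids of mating type a/α and were sampled in 5 mL at an optical density of 0.5 to 1.0, so each strain stands for 1 genetic background. In bulk RNA, fewer cells with a transcript and less of it per cell cannot be told apart.

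Yeast carries separate genes for the same protein in air and under low oxygen. Heme synthesis needs oxygen, and the transcription factor Hap1 binds heme and activates ROX1 and genes of respiration. Rox1 in turn represses hypoxic genes, so that loss of heme removes Rox1 and releases genes under its control. How far this holds for the hypoxic member of each pair was not tested here. In the pairs above CYC1, COX5A, HYP2 and PET9 are the aerobic members, and CYC7, COX5B, ANB1 and AAC3 the hypoxic ones. The Hap2/3/4/5 complex is a further activator of respiratory genes on carbon sources that are not fermented.

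Levels are TPM, the transcript abundance unit of the deposited table, which is scaled per length and to a fixed total in each library, so depth is unknown and levels of different genes can be set side by side. Differences are of log2(TPM + 1) ± SE from limma, fitted on the 6309 genes whose mean over all libraries reached 1 TPM. Calls are at a Benjamini-Hochberg adjusted p below 0.05 over all of them. Of the 10 genes, 8 were tested. HYP2 was listed at 0 TPM in all 18 libraries and AAC3 averaged 0.415 TPM, so neither entered the fit. Because TPM is relative, the median of all tested genes is given once here. YJM975 minus RM11 had a median of 0.028 in ethanol, -0.59 in glycerol and -0.38 in glucose.

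The libraries labelled glucose hold transcripts that glucose is known to repress. There ICL1, which encodes isocitrate lyase, averaged 401 ± 36.02 TPM for YJM975 and 1791 ± 107 TPM for RM11 (SD, n = 3). HXK2, a hexokinase gene that glucose is known to induce, averaged 5.08 ± 0.534 TPM for YJM975 and 2.30 ± 0.0468 TPM for RM11. Both belong to a list of 7 genes regulated by glucose, with FBP1, MLS1, PCK1, SUC2 and ADH2. HXK2 is expected to run opposite to the repressed genes, so the sums and counts below mix both directions. The 7 summed to 4436, 1242 and 1962 TPM in YJM975 in ethanol, glycerol and glucose, and to 3734, 3002 and 5536 TPM in RM11. Ethanol minus glucose gave 4 higher and 2 lower in YJM975, where 56.5% and 30.3% of all genes were. With each library centred on its median gene it gave 3 and 3. In RM11 it gave 1 and 4, where 32% and 37.4% of all genes were. Without centring the 7 differences ranged from -1.79 to 3.19 in YJM975 and from -1.69 to 1.49 in RM11. The genes of the list thus did not move together, and ICL1 and HXK2 alone do not stand for it. Every medium is given as labelled. The glucose libraries also carried a sequencing run label of their own, so run and medium cannot be told apart in any comparison with glucose, while strain comparisons lie within a run. A list of 5 sporulation genes summed to 731 to 823 TPM in RM11 libraries labelled glycerol and to between 7.21 and 14.7 TPM in the libraries of the other groups. None of the 5 was at 0 in all 3 libraries of a group. The 6 general stress genes summed to 74585 to 78881 TPM in YJM975 and 74284 to 80646 TPM in RM11 in ethanol, 99536 to 102739.7 and 68212 to 70509 TPM in glycerol, and 55387 to 57976 and 69981 to 71233 TPM in glucose. None of these 6 was at 0 in all 3 libraries of a group either. The part of these states in the results below was not tested.

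**Figure D1:**
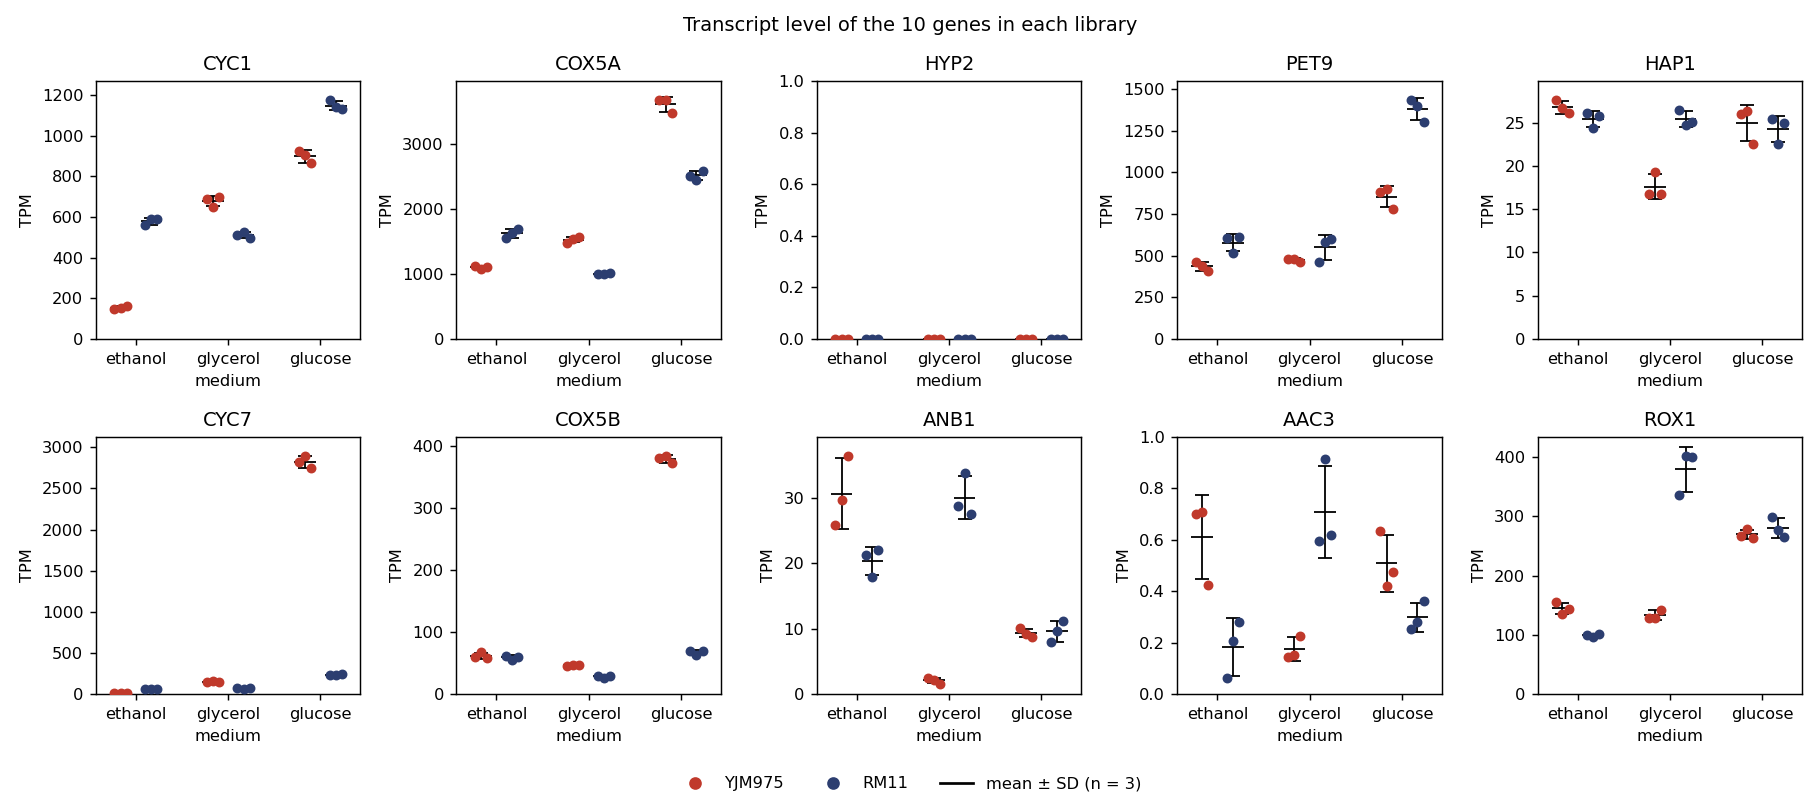
TPM of the 10 genes in each library (points) by medium and strain, with the mean and SD of 3 libraries, on linear axes that start at 0. The upper row holds the aerobic members and HAP1, the lower row the hypoxic members and ROX1. CYC7 and COX5B stand far above all other groups in YJM975 in glucose, ANB1 is lowest in YJM975 in glycerol, and HYP2 lies at 0 throughout.

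CYC7 took the larger part of cytochrome c mRNA in a single group, YJM975 in the libraries labelled glucose. Cytochrome c carries electrons between the bc1 complex and cytochrome c oxidase, and CYC1 is its main form in air. In ethanol CYC7 had 21.7, 22.6 and 20.4 TPM in YJM975, against 63.9, 63.1 and 62.5 TPM in RM11. In glycerol CYC7 had 151, 162 and 156 TPM in YJM975, against 82.9, 70.4 and 79.2 TPM in RM11. In glucose CYC7 had 2823, 2897 and 2747 TPM in YJM975, against 231, 235 and 243 TPM in RM11. The strains did not overlap in any medium, and YJM975 was the lower in ethanol and the higher in glycerol and glucose. The differences were -1.51 ± 0.055 (limma adjusted p = 7.12e-13) in ethanol, 1.01 ± 0.055 (limma adjusted p = 1.01e-11) in glycerol and 3.57 ± 0.055 (limma adjusted p = 1.71e-18) in glucose. CYC7 was highest in YJM975 in glucose, followed by RM11 in glucose, YJM975 in glycerol, RM11 in glycerol, RM11 in ethanol and YJM975 in ethanol, and no neighbours in this order overlapped. Over all 18 libraries CYC7 spanned 142-fold, the widest range of the 9 genes with a level above 0.

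CYC1 moved between the strains in a different way. In ethanol CYC1 had 146, 152 and 163 TPM in YJM975, against 559, 588 and 590.2 TPM in RM11. In glycerol CYC1 had 690.03, 649.7 and 698 TPM in YJM975, against 512, 528 and 498 TPM in RM11. In glucose CYC1 had 923, 905 and 864 TPM in YJM975, against 1174, 1138 and 1129 TPM in RM11. YJM975 was therefore below RM11 in ethanol and glucose and above it in glycerol, again with no overlap. CYC1 was lower in YJM975, at -1.91 ± 0.048 (limma adjusted p = 2.59e-15) in ethanol and at -0.35 ± 0.048 (limma adjusted p = 2.49e-06) in glucose, and higher by 0.40 ± 0.048 (limma adjusted p = 4.06e-07) in glycerol. With each library centred on its median gene, the glucose difference was 0.072 (limma adjusted p = 0.264). CYC1 was highest in RM11 in glucose, followed by YJM975 in glucose, YJM975 in glycerol, RM11 in ethanol, RM11 in glycerol and YJM975 in ethanol, and no neighbours in this order overlapped.

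The ratio of CYC7 to CYC1, which does not depend on the scaling of TPM, lay above that of RM11 in YJM975 in every medium. In ethanol the CYC7 to CYC1 ratio was 0.148, 0.149 and 0.125 in YJM975, against 0.114, 0.107 and 0.106 in RM11. In glycerol the CYC7 to CYC1 ratio was 0.219, 0.249 and 0.224 in YJM975, against 0.162, 0.133 and 0.159 in RM11. In glucose the CYC7 to CYC1 ratio was 3.06, 3.20 and 3.18 in YJM975, against 0.196, 0.207 and 0.215 in RM11. The libraries of the strains did not overlap in any medium, and CYC7 exceeded CYC1 in the 3 YJM975 libraries labelled glucose and in none of the other 15. As a share of both transcripts, CYC7 made up 12.3 ± 1.04% in YJM975 and 9.84 ± 0.368% in RM11 in ethanol, 18.7 ± 1.04% and 13.1 ± 1.19% in glycerol, and 75.9 ± 0.450% and 17.1 ± 0.652% in glucose (SD, n = 3).

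Over the 3 media the CYC7 to CYC1 ratio was higher in YJM975 by 1.64 on the log2 scale (exact permutation test with strain labels permuted within each medium, two-sided p = 0.00025, the smallest it can give, and 0.000375 adjusted over 3 pairs). By medium it was 0.36 in ethanol, 0.61 in glycerol and 3.93 in glucose. In a single medium, 3 libraries against 3 cannot give an exact p under 0.1, which each of these gave. Without the glucose libraries the difference was 0.49 (exact permutation p = 0.005, the smallest that test can give, and 0.0075 adjusted over 3 pairs). Total cytochrome c mRNA, CYC1 plus CYC7, was 175 ± 7.56 TPM in YJM975 and 642 ± 17.05 TPM in RM11 in ethanol, 835 ± 21.96 TPM and 590.2 ± 11.02 TPM in glycerol, and 3719 ± 98.1 TPM and 1383 ± 18.4 TPM in glucose.

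COX5B was also higher in YJM975 in glycerol and glucose. Cox5a and Cox5b are alternative forms of a cytochrome c oxidase subunit, and the enzyme with Cox5b is known for faster turnover. In ethanol COX5B had 60.1, 67.8 and 58.3 TPM in YJM975, against 62.7, 55.97 and 60.4 TPM in RM11. In glycerol COX5B had 45.8, 48.1 and 47.9 TPM in YJM975, against 30.2, 27.2 and 30.4 TPM in RM11. In glucose COX5B had 381, 385 and 373 TPM in YJM975, against 70.7, 64.1 and 70.7 TPM in RM11. The strains overlapped in ethanol and were apart in glycerol and glucose. COX5B was higher in YJM975 by 0.68 ± 0.063 (limma adjusted p = 1.55e-08) in glycerol and 2.45 ± 0.063 (limma adjusted p = 4.64e-16) in glucose, and the ethanol difference of 0.054 ± 0.063 (limma adjusted p = 0.503) did not pass the test. COX5B was highest in YJM975 in glucose, followed by RM11 in glucose, YJM975 in ethanol, RM11 in ethanol, YJM975 in glycerol and RM11 in glycerol, where RM11 in glucose with YJM975 in ethanol and YJM975 in ethanol with RM11 in ethanol overlapped.

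COX5A, the far more abundant form, was lower in YJM975 in ethanol and higher in the other 2 media. In ethanol COX5A had 1119.7, 1079 and 1112 TPM in YJM975, against 1557, 1633 and 1695 TPM in RM11. In glycerol COX5A had 1479, 1540.2 and 1562 TPM in YJM975, against 992, 1002 and 1012 TPM in RM11. In glucose COX5A had 3671, 3672 and 3479 TPM in YJM975, against 2507, 2446 and 2587 TPM in RM11. The strains did not overlap in any medium. The differences were -0.56 ± 0.043 (limma adjusted p = 1.03e-08) in ethanol, 0.61 ± 0.043 (limma adjusted p = 3.50e-10) in glycerol and 0.52 ± 0.043 (limma adjusted p = 3.68e-09) in glucose. COX5A was highest in YJM975 in glucose, followed by RM11 in glucose, RM11 in ethanol, YJM975 in glycerol, YJM975 in ethanol and RM11 in glycerol, where RM11 in ethanol with YJM975 in glycerol overlapped. Of the 7 other nuclear oxidase subunit genes (COX4, COX6, COX7, COX8, COX9, COX12 and COX13), 7 were lower in YJM975 in ethanol and 7 higher in glycerol, both also with each library centred on its median gene, and 4 were higher and 0 lower in glucose (7 and 0 with centring). Their median differences were -0.46, 0.63 and 0.21, against 0.028, -0.59 and -0.38 for all genes. Of all tested genes, 21.2% were lower in ethanol, 16.2% higher in glycerol and 22.5% higher in glucose (28.5%, 46.1% and 43.7% with centring).

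COX5B stayed below COX5A in all 18 libraries. In ethanol the COX5B to COX5A ratio was 0.0537, 0.0628 and 0.0524 in YJM975, against 0.0403, 0.0343 and 0.0356 in RM11. In glycerol the COX5B to COX5A ratio was 0.0310, 0.0313 and 0.0306 in YJM975, against 0.0305, 0.0272 and 0.0300 in RM11. In glucose the COX5B to COX5A ratio was 0.104, 0.105 and 0.107 in YJM975, against 0.0282, 0.0262 and 0.0273 in RM11. YJM975 was above RM11 without overlap in every medium, but by little in glycerol. As a share of the pair, COX5B made up 5.33 ± 0.504% in YJM975 and 3.54 ± 0.292% in RM11 in ethanol, 3.003 ± 0.0292% and 2.84 ± 0.169% in glycerol, and 9.52 ± 0.148% and 2.65 ± 0.0951% in glucose (SD, n = 3). Over the 3 media the log2 ratio was higher in YJM975 by 0.88 (exact permutation p = 0.00025, the smallest possible, and 0.000375 adjusted over 3 pairs), and by 0.35 without the glucose libraries (exact permutation p = 0.005, adjusted 0.0075). The differences by medium were 0.62 in ethanol, 0.086 in glycerol and 1.95 in glucose.

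**Figure D2:**
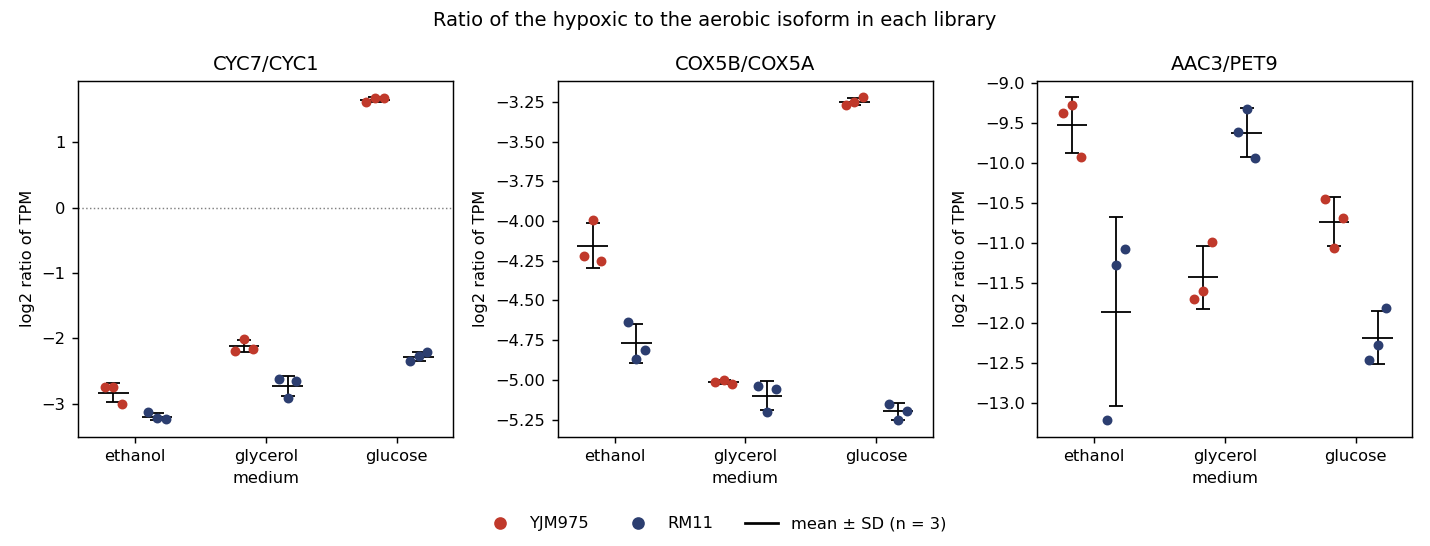
Log2 ratio of the hypoxic to the aerobic isoform in each library (points) by medium and strain, with the mean and SD of 3 libraries. The dotted line in the first panel marks equal levels, which only the YJM975 glucose libraries exceed. The scales differ between panels, and the axes do not start at 0.

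For the eIF5A pair no ratio could be formed, because HYP2 was listed at 0 in every library. eIF5A is essential, carries the amino acid hypusine and eases translation of difficult sequences. HYP2 is its main gene in air. The table also lists a transcript YEL034C-A, chosen after its values were seen, whose systematic name places it next to YEL034W (HYP2) on the other strand and which the annotation of assembly R64 does not list. In that assembly an open reading frame of 603 bases on the opposite strand spans all 474 coding bases of HYP2 and 129 bases beyond. The search kept only frames that span HYP2 and took the longest. Whether this frame is YEL034C-A was not tested. YEL034C-A averaged 652 ± 36.3, 721 ± 57.6 and 169 ± 6.28 TPM in YJM975 in ethanol, glycerol and glucose, and 841 ± 30.8, 1127 ± 59.9 and 577 ± 17.2 TPM in RM11. Whether reads of HYP2 were assigned to it was not tested, and its values are not taken as HYP2 levels. The coding sequences of HYP2 and ANB1 in R64 were identical at 431 of 474 bases (90.9%), so the level of ANB1 depends on how reads were shared out.

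ANB1, the hypoxic eIF5A gene, differed between the strains most in glycerol. In ethanol ANB1 had 25.8, 29.7 and 36.4 TPM in YJM975, against 21.2, 17.9 and 21.98 TPM in RM11. In glycerol ANB1 had 2.50, 2.28 and 1.67 TPM in YJM975, against 28.7, 33.7 and 27.6 TPM in RM11. In glucose ANB1 had 10.1, 9.25 and 8.80 TPM in YJM975, against 8.05, 9.70 and 11.2 TPM in RM11. The strains were wide apart in glycerol, apart by less in ethanol and overlapped in glucose. ANB1 was lower in YJM975, at -3.30 ± 0.13 (limma adjusted p = 1.26e-13) in glycerol and higher by 0.56 ± 0.13 (limma adjusted p = 0.00207) in ethanol, and the glucose difference of -0.026 ± 0.13 (limma adjusted p = 0.861) did not pass the test. With centring on the median gene it was 0.40 (limma adjusted p = 0.0154). ANB1 was highest in YJM975 in ethanol, followed by RM11 in glycerol, RM11 in ethanol, RM11 in glucose, YJM975 in glucose and YJM975 in glycerol, where YJM975 in ethanol with RM11 in glycerol and RM11 in glucose with YJM975 in glucose overlapped. DYS1 and LIA1, the enzymes that make hypusine on eIF5A, were both lower in YJM975 in glycerol, at -1.79 ± 0.085 and -1.998 ± 0.082, and both higher in ethanol, by 0.76 ± 0.085 and 0.66 ± 0.082. In glucose both were lower, at -0.27 ± 0.085 and -0.94 ± 0.082, and 1 of them with centring on the median gene.

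The ADP/ATP carrier pair was made up almost wholly of its aerobic member. The carrier exchanges ADP for ATP across the inner mitochondrial membrane, and PET9 is the form needed for growth by respiration. In ethanol PET9 had 463, 437 and 409 TPM in YJM975, against 606, 517 and 609.9 TPM in RM11. In glycerol PET9 had 482, 479 and 462 TPM in YJM975, against 464, 585 and 601 TPM in RM11. In glucose PET9 had 884, 899 and 780.001 TPM in YJM975, against 1433, 1399.8 and 1303 TPM in RM11. The strains were apart in ethanol and glucose and overlapped in glycerol. PET9 was lower in YJM975, at -0.40 ± 0.089 (limma adjusted p = 0.00128) in ethanol and -0.69 ± 0.089 (limma adjusted p = 1.35e-06) in glucose. The glycerol difference of -0.20 ± 0.089 (limma adjusted p = 0.0430) passed the test narrowly and turned to 0.48 (adjusted p = 3.10e-05) with centring on the median gene. It missed the threshold in 6 of the 18 fits that left out 1 library. PET9 was highest in RM11 in glucose, followed by YJM975 in glucose, RM11 in ethanol, RM11 in glycerol, YJM975 in glycerol and YJM975 in ethanol, where RM11 in ethanol with RM11 in glycerol and RM11 in glycerol with YJM975 in glycerol and YJM975 in glycerol with YJM975 in ethanol overlapped. AAC1, the third carrier gene, was lower in YJM975, at -0.16 ± 0.059 (limma adjusted p = 0.0188) in glycerol (higher with centring, at 0.53) and -0.78 ± 0.059 (limma adjusted p = 1.04e-09) in glucose, and its ethanol difference was -0.057 ± 0.059 (limma adjusted p = 0.447).

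AAC3 stood below 1 TPM in all 18 libraries. Its values were 0.701, 0.706 and 0.423 TPM in YJM975 in ethanol, against 0.0634, 0.208 and 0.282 TPM in RM11. In glycerol they were 0.144, 0.154 and 0.229 TPM in YJM975, against 0.596, 0.914 and 0.617 TPM in RM11. In glucose they were 0.632, 0.420 and 0.474 TPM in YJM975, against 0.254, 0.281 and 0.362 TPM in RM11. The strains did not overlap in any medium, with YJM975 below RM11 in glycerol and above it in the other media, but the number of reads behind such values is unknown. AAC3 made up between 0.0105% and 0.161% of the pair over the 18 libraries. The log2 ratio to PET9 differed by 2.34 in ethanol, -1.81 in glycerol and 1.45 in glucose, and over the 3 media by 0.66 (exact permutation p = 0.242, also 0.242 adjusted), so no common strain difference passed the test.

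HAP1, the gene of the heme-responsive activator, passed the test between the strains in glycerol. In ethanol HAP1 had 27.6, 26.7 and 26.1 TPM in YJM975, against 26.1, 24.3 and 25.7 TPM in RM11. In glycerol HAP1 had 16.7, 19.2 and 16.7 TPM in YJM975, against 26.4, 24.7 and 25.1 TPM in RM11. In glucose HAP1 had 26.03, 26.3 and 22.5 TPM in YJM975, against 25.4, 22.6 and 24.96 TPM in RM11. YJM975 in glycerol lay below all other groups, and each of the other 5 overlapped with its neighbours in the order of their means. The strains were apart by little in ethanol and overlapped in glucose. HAP1 was lower in YJM975, at -0.51 ± 0.067 (limma adjusted p = 1.54e-06) in glycerol, where the median gene lay at -0.59, and was 0.18 higher (adjusted p = 0.00420) with centring on that median. The differences in ethanol (0.075 ± 0.067) and glucose (0.036 ± 0.067) did not pass the test (limma adjusted p = 0.380 and 0.631). With centring the glucose difference did, at 0.46 (adjusted p = 2.85e-07). The laboratory strain S288C is known to carry a transposon insertion in HAP1, and which HAP1 sequence the reads were compared with is not given in the sources used here.

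ROX1, the gene of the repressor, passed the test in ethanol and glycerol, in opposite directions. In ethanol ROX1 had 155, 136 and 145 TPM in YJM975, against 99.9, 97.6 and 101 TPM in RM11. In glycerol ROX1 had 129, 128 and 143 TPM in YJM975, against 336, 402 and 400.003 TPM in RM11. In glucose ROX1 had 266, 279 and 263 TPM in YJM975, against 299.5, 277 and 265 TPM in RM11. The strains were apart in glycerol and, in the other direction, in ethanol, and overlapped in glucose. ROX1 was lower in YJM975, at -1.50 ± 0.070 (limma adjusted p = 1.09e-12) in glycerol and higher by 0.54 ± 0.070 (limma adjusted p = 6.25e-06) in ethanol. The glucose difference of -0.056 ± 0.070 (limma adjusted p = 0.469) did not pass the test, and was 0.37 (adjusted p = 1.24e-04) with centring. ROX1 was highest in RM11 in glycerol, followed by RM11 in glucose, YJM975 in glucose, YJM975 in ethanol, YJM975 in glycerol and RM11 in ethanol, where RM11 in glucose with YJM975 in glucose and YJM975 in ethanol with YJM975 in glycerol overlapped. In YJM975, ANB1 averaged 30.7 TPM beside 145 TPM of ROX1 in ethanol, 2.15 beside 133 TPM in glycerol and 9.39 beside 269 TPM in glucose. In RM11, it averaged 20.4 TPM beside 99.5 TPM of ROX1 in ethanol, 30.003 beside 379 TPM in glycerol and 9.64 beside 280.4 TPM in glucose. These are mRNA levels, and whether ROX1 bears on ANB1 here was not tested. The level of ANB1 also depends on how reads were shared out with HYP2.

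Counted together, the 8 tested genes went both ways between the strains in every medium. In ethanol 2 were higher and 4 lower in YJM975, where 48% of all tested genes were called (26.8% higher and 21.2% lower). In glycerol 4 were higher and 4 lower, where 86.2% of all were called (16.2% higher and 70.1% lower). In glucose 3 were higher and 2 lower, where 83.1% of all were called (22.5% higher and 60.7% lower). With centring on the median gene the 8 genes split into 2 higher and 4 lower in ethanol (24.1% and 28.5% of all genes), 6 and 2 in glycerol (46.1% and 37.6%), and 6 and 1 in glucose (43.7% and 39.6%). Averaged over the media, CYC7 was higher in YJM975 by 1.02 ± 0.032, COX5B by 1.06 ± 0.036 and COX5A by 0.19 ± 0.025. The other 5 were lower, ANB1 at -0.92 ± 0.076. With centring HAP1 was higher (0.22), and ROX1 (0.019) and PET9 (-0.075) were not called. Of all tested genes, 84.7% were called in that average, 15.4% higher and 69.3% lower (43.2% and 39.9% with centring, which left 4 of the 8 genes higher and 2 lower).

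**Figure D3:**
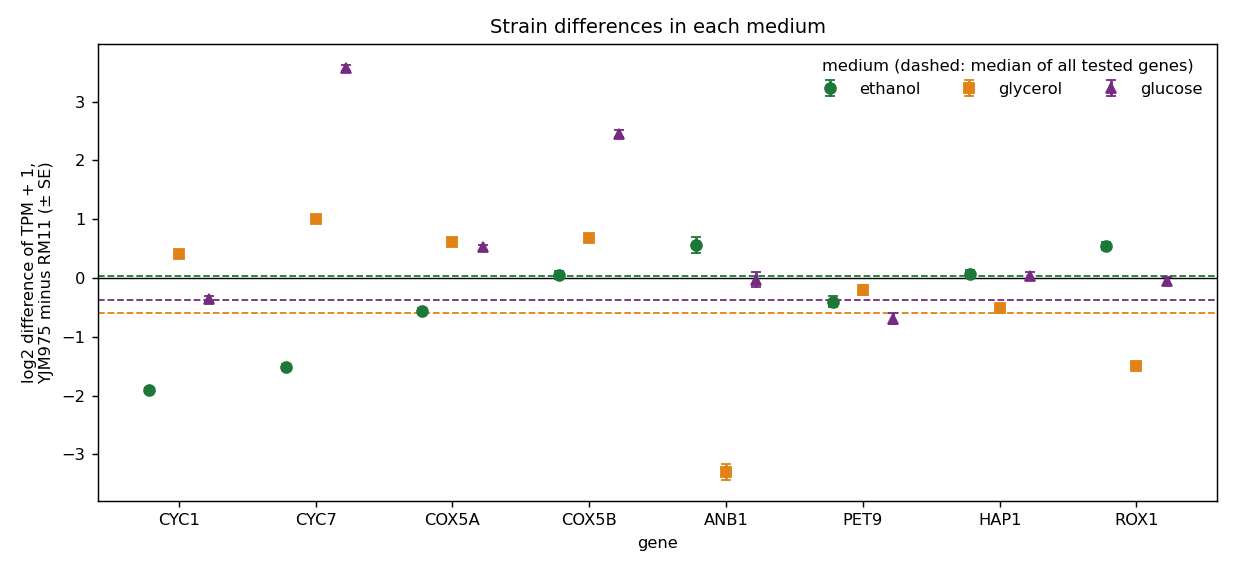
Log2 difference of TPM + 1 between YJM975 and RM11 (± SE from limma) for the 8 tested genes in each medium, with the median of all tested genes in that medium as a dashed line. CYC7 and COX5B reach 3.57 and 2.45 in glucose, ANB1 reaches -3.30 in glycerol, and CYC1 and CYC7 lie at -1.91 and -1.51 in ethanol.

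Against the libraries labelled glucose, most of the respiratory members were lower in ethanol and glycerol in both strains. In YJM975, ethanol minus glucose gave 1 gene higher (ANB1) and 6 lower of 8, where 86.8% of all genes were called (56.5% higher and 30.3% lower, or 40.9% and 46.7% with centring). CYC7 was lower, at -6.97 ± 0.055 (limma adjusted p = 6.92e-23), the lowest value of all tested genes in that comparison, COX5B at -2.60 ± 0.063, CYC1 at -2.54 ± 0.048, COX5A at -1.71 ± 0.043, PET9 at -0.97 ± 0.089 and ROX1 at -0.89 ± 0.070. HAP1 was not called (0.10 ± 0.067) and lay at -0.34 with centring (adjusted p = 9.39e-06). ANB1 was higher by 1.60 ± 0.13 (limma adjusted p = 2.90e-09). In RM11 the same comparison also gave 1 higher (ANB1) and 6 lower, where 69.4% of all were called (32% higher and 37.4% lower). There CYC7 was lower, at -1.89 ± 0.055, ROX1 at -1.48 ± 0.070, PET9 at -1.26 ± 0.089, CYC1 at -0.99 ± 0.048, COX5A at -0.63 ± 0.043 and COX5B at -0.20 ± 0.063, and ANB1 was higher by 1.01 ± 0.13. The COX5B call in RM11 was lost without ethanol replicate 2 of RM11 (-0.15, limma adjusted p = 0.0605).

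In glycerol, all 8 tested genes were lower than in glucose in YJM975 and 5 of 8 in RM11. In YJM975 83.7% of all genes were called (41.2% higher and 42.6% lower). CYC7 was lower, at -4.17 ± 0.055 (limma adjusted p = 1.58e-19), COX5B at -2.98 ± 0.063, ANB1 at -1.73 ± 0.13, COX5A at -1.24 ± 0.043, ROX1 at -1.01 ± 0.070, PET9 at -0.84 ± 0.089, HAP1 at -0.48 ± 0.067 and CYC1 at -0.40 ± 0.048. In RM11, where 81.7% were called (53% higher and 28.7% lower, or 38.5% and 43.1% with centring), ANB1 was higher by 1.55 ± 0.13 (limma adjusted p = 6.68e-09) and ROX1 by 0.43 ± 0.070, the second not called with centring (0.15, adjusted p = 0.0540). CYC7 was lower, at -1.60 ± 0.055, PET9 at -1.33 ± 0.089, COX5A at -1.33 ± 0.043, COX5B at -1.20 ± 0.063 and CYC1 at -1.16 ± 0.048, and HAP1 at 0.063 ± 0.067 was not called (-0.22, adjusted p = 9.89e-04, with centring).

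Ethanol minus glycerol ran differently in the strains. In YJM975 ANB1 was higher by 3.32 ± 0.13 (limma adjusted p = 3.96e-13), HAP1 by 0.58 ± 0.067 and COX5B by 0.38 ± 0.063, while CYC7 was lower, at -2.80 ± 0.055, CYC1 at -2.14 ± 0.048 and COX5A at -0.47 ± 0.043. With centring COX5B was at -0.040 and not called, and PET9 and ROX1, not called here, were lower, at -0.54 and -0.30. Of all genes 77.1% were called there, 64% higher and 13.1% lower (32.3% and 40.8% with centring). In RM11 COX5B was higher by 1.004 ± 0.063, COX5A by 0.70 ± 0.043 and CYC1 by 0.18 ± 0.048, while ROX1 was lower, at -1.91 ± 0.070 (limma adjusted p = 1.43e-13), ANB1 at -0.54 ± 0.13 and CYC7 at -0.29 ± 0.055. With centring CYC7 (0.021) and ANB1 (-0.23) were not called, and PET9 (0.39) and HAP1 (0.31) were higher. There 75.5% were called, 21.4% higher and 54.1% lower (43.5% and 33.3% with centring).

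The CYC7 to CYC1 ratio was lower in ethanol than in glucose, at -2.70 on the log2 scale over both strains, and lower in glycerol than in glucose, at -2.11. It was also lower in ethanol than in glycerol, at -0.59. Each of these gave an exact permutation p of 0.005, the smallest that 400 arrangements allow, and 0.0113 adjusted over 9 tests. By strain, ethanol minus glucose was -4.49 in YJM975 and -0.92 in RM11, and glycerol minus glucose -3.77 in YJM975 and -0.45 in RM11. The COX5B to COX5A ratio was higher in ethanol than in glycerol by 0.59 (exact permutation p = 0.005, adjusted 0.0113), in both strains (0.86 in YJM975 and 0.33 in RM11). Against glucose it went opposite ways in the strains in ethanol, at -0.91 in YJM975 and 0.43 in RM11. In glycerol against glucose it was at -1.77 in YJM975 and 0.10 in RM11. Over both strains neither ethanol minus glucose (-0.24, exact permutation p = 0.280, adjusted 0.315) nor glycerol minus glucose (-0.83, exact permutation p = 0.0900, adjusted 0.135) passed the test. None of the 3 AAC3 to PET9 comparisons passed over both strains (exact permutation p from 0.085 to 0.875, adjusted from 0.135 to 0.875), with differences of 0.77 for ethanol minus glucose, 0.94 for glycerol minus glucose and -0.17 for ethanol minus glycerol. By strain, ethanol minus glucose was 1.21 in YJM975 and 0.33 in RM11. The strains went opposite ways in glycerol minus glucose, at -0.70 in YJM975 and 2.57 in RM11, and in ethanol minus glycerol, at 1.91 and -2.24.

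The change between media itself differed between the strains for most of the 8 genes. For ethanol minus glucose the YJM975 change minus the RM11 change was called above 0 for 3 and below 0 for 4, where 76.8% of all genes were called (56.5% above and 20.2% below). With centring on the median gene it was called above 0 for 0 and below 0 for 5 (35.4% and 41.8% of all genes). ANB1, PET9 and ROX1 were then no longer called. For glycerol minus glucose it was called above 0 for 2 and below 0 for 5, where 78.3% were called (31.5% and 46.7%), and for 3 and 5 with centring (43.4% and 37.1%). For ethanol minus glycerol it was called above 0 for 3 and below 0 for 4, where 80.8% were called (65.4% and 15.4%), and for 2 and 5 with centring (33.7% and 44.6%). CYC7 had the lowest value of the 8 in 2 of the 3, -5.08 ± 0.078 (limma adjusted p = 1.24e-17) and -2.52 ± 0.078 (limma adjusted p = 1.18e-14), and ANB1 in the other, -3.28 ± 0.19 (limma adjusted p = 4.15e-11).

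**Figure D4:**
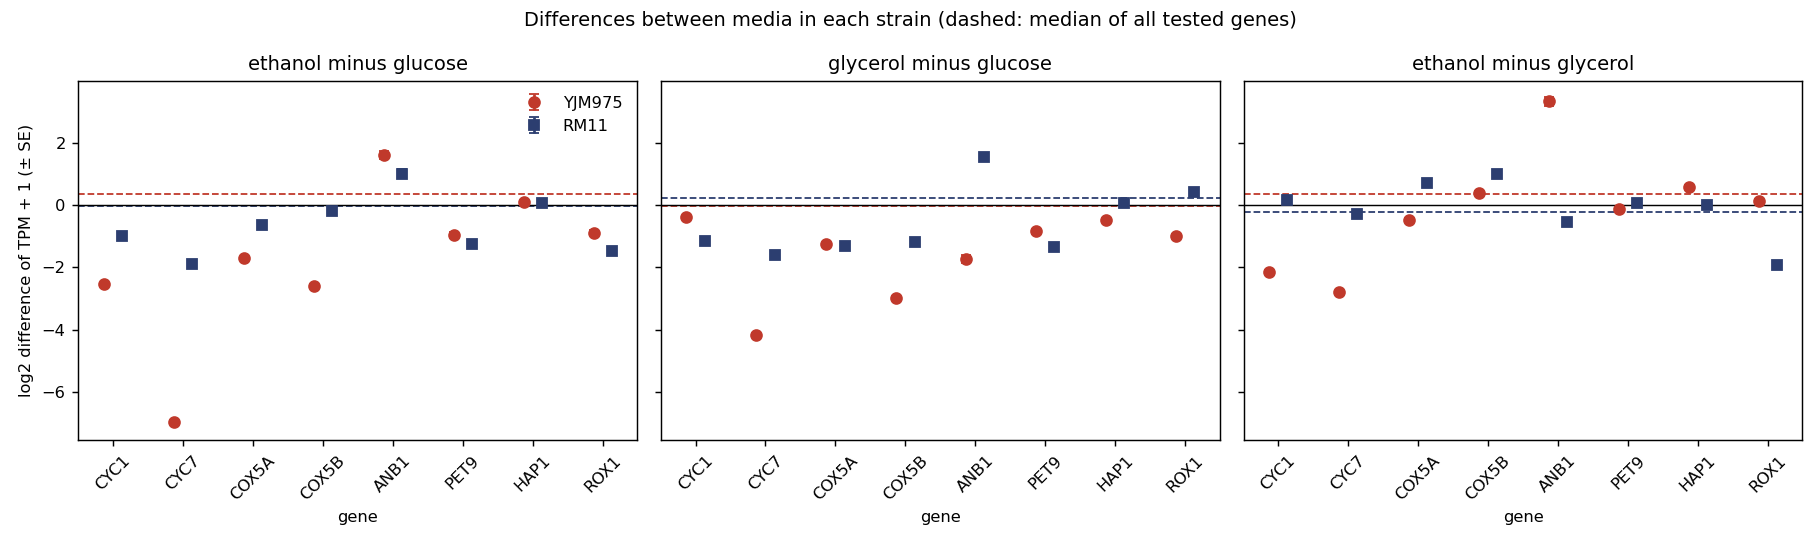
Log2 difference of TPM + 1 between 2 media (± SE from limma) for the 8 tested genes in each strain, with the median of all tested genes as a dashed line. CYC7 reaches -6.97 in YJM975 and -1.89 in RM11 for ethanol minus glucose, and ANB1 lies at -1.73 in YJM975 and 1.55 in RM11 for glycerol minus glucose.

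Among the other genes of the pathway, heme synthesis genes divided in glucose. There 4 were higher and 4 lower in YJM975, also with centring (median -0.18, against -0.38 for all genes). In glycerol all 8 were lower (median -0.83, against -0.59), but 3 were higher and 4 lower with centring. In glucose HEM1, HEM2, HEM3 and HEM13 were higher, by 0.71 ± 0.083, 0.40 ± 0.071, 0.60 ± 0.060 and 0.99 ± 0.059, and HEM4, HEM12, HEM14 and HEM15 lower, at -1.18 ± 0.064, -1.32 ± 0.066, -0.76 ± 0.060 and -1.44 ± 0.061. HEM1 makes the first intermediate of the pathway, HEM13 carries out an oxygen-dependent step and is itself repressed by Rox1, and HEM15 inserts the iron. In ethanol 1 was higher, HEM13 by 0.67 ± 0.059 (limma adjusted p = 5.93e-08), and 4 were lower. For this list and those below, the shares of all tested genes called were 22.5% higher and 60.7% lower in glucose. They were 16.2% and 70.1% in glycerol, and 26.8% and 21.2% in ethanol. With centring they were 43.7% and 39.6%, 46.1% and 37.6%, and 24.1% and 28.5%, in the same order.

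Other hypoxic genes went both ways in glucose, the medium in which CYC7 and COX5B stood far higher in YJM975. Of 13 tested of 15 listed, 6 were higher and 7 lower in YJM975 in glucose, 0 and 12 in glycerol, and 3 and 4 in ethanol. With centring these counts were 6 and 4, 4 and 7, and 3 and 6. Their medians were -0.35, -1.03 and -0.086, against -0.38, -0.59 and 0.028 for all genes. In glucose OLE1, the fatty acid desaturase gene whose enzyme needs oxygen, was lower, at -3.35 ± 0.10. In glycerol SUT1, a regulator of sterol uptake, was lower, at -2.89 ± 0.14. Of 7 other genes known as Hap1 targets, 1 was higher and 6 lower in glucose (median -1.08), 4 and 2 in glycerol (0.64), and 0 and 6 in ethanol (-0.56), or 1 and 5, 6 and 1, and 0 and 7 with centring. ERG11, the lanosterol demethylase gene, was lower, at -3.12 ± 0.072 in glucose. The manganese superoxide dismutase gene SOD2 was higher by 1.13 ± 0.052 in glycerol, where ERG11 again had the largest difference, -1.91 ± 0.072. The lactate dehydrogenase gene CYB2 was lower, at -1.22 ± 0.079 in ethanol.

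All 8 other oxygen regulators were lower in YJM975 in glycerol, where 70.1% of all tested genes were (median -1.07, against -0.59). With centring 3 were higher and 5 lower, beside 46.1% and 37.6% of all genes. In glucose 3 were higher and 3 lower (median -0.050, or 6 and 1 with centring), and in ethanol 2 were higher and 1 lower (0.059, or 2 and 2 with centring). TUP1 and CYC8, which form the corepressor that Rox1 recruits, were lower in glycerol, at -1.34 ± 0.080 and -1.20 ± 0.093. MGA2, an activator of OLE1, was lower, at -2.97 ± 0.070, and UPC2, an activator of sterol genes, at -1.53 ± 0.077. IXR1, a DNA-binding protein known to act on COX5B, was higher in glucose by 1.07 ± 0.090 (limma adjusted p = 4.90e-09). Its bearing on COX5B here, in either direction, was not tested. In the Hap2/3/4/5 complex, HAP4, its activating subunit, was lower in glycerol, at -0.95 ± 0.061 and not called in glucose (-0.034 ± 0.061) or ethanol (-0.074 ± 0.061). HAP3 was higher in glucose by 0.47 ± 0.065 and HAP2 lower in ethanol, at -0.57 ± 0.053. Of the 4 subunit genes, 1 was higher and 2 lower in glucose (3 and 0 with centring), 0 and 2 in glycerol (2 and 1) and 0 and 3 in ethanol (0 and 4). Of the 3 cytochrome c maturation genes, CYC2 was lower, at -0.68 ± 0.061 in glucose and -0.17 ± 0.061 in ethanol. CYC3 was lower, at -0.54 ± 0.065 in glucose and -0.17 ± 0.065 in glycerol, and not called in ethanol (0.062 ± 0.065). With centring the median of the 3 was -0.11 in glucose and 0.66 in glycerol. CYT2, the heme lyase gene for cytochrome c1, was higher by 0.72 ± 0.065 in glucose and 0.28 ± 0.065 in glycerol. Counted over all 3, 1 was higher and 2 lower in glucose (1 and 1 with centring), 1 and 1 in glycerol (3 and 0) and 0 and 1 in ethanol (0 and 1).

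**Figure D5:**
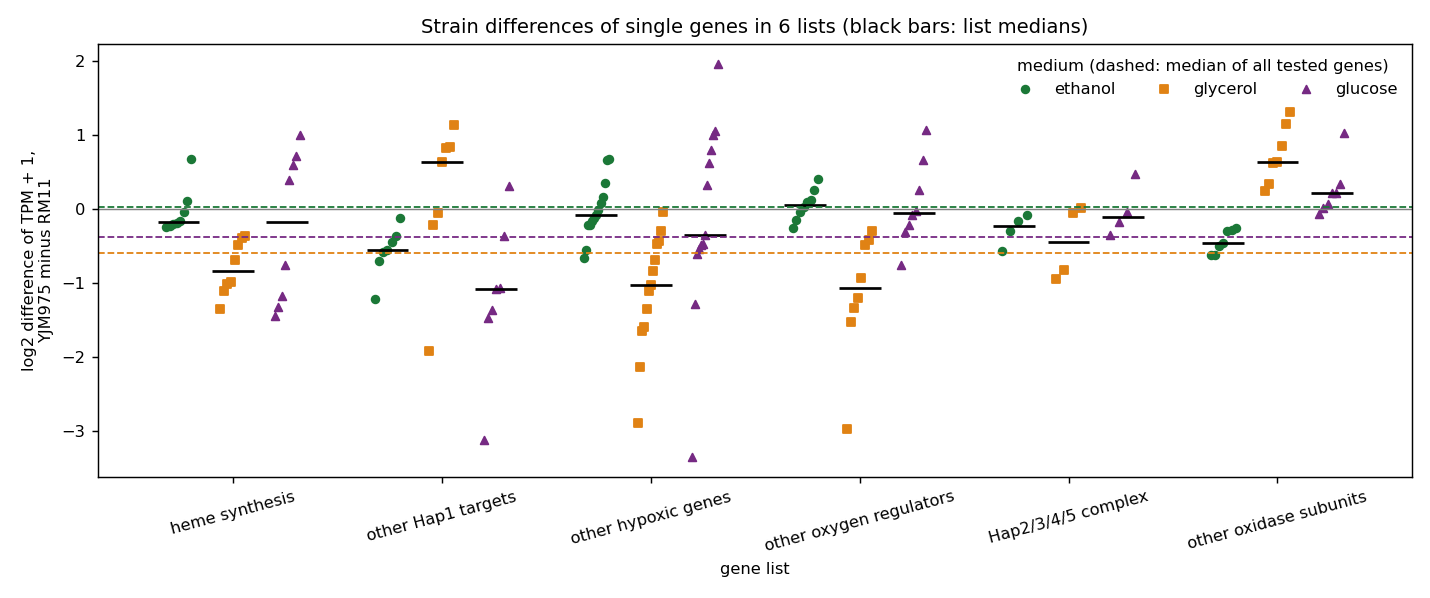
Log2 difference of TPM + 1 between YJM975 and RM11 for each tested gene (points) of 6 lists in the 3 media, with list medians as black bars and the medians of all tested genes as dashed lines. All points of the heme synthesis and other oxygen regulator lists lie below 0 in glycerol, where 70.1% of all tested genes were called lower. With centring on the median gene 3 of 8 in each were called higher. All points of the other oxidase subunits lie above 0 in glycerol and below 0 in ethanol.

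Across the 18 libraries, which fall into 6 groups and share the scaling of TPM, log2 levels of CYC7 ran most like COX5A (r = 0.887) among the members and like COX5B with r = 0.817. CYC1 and CYC7 had r = 0.727 and COX5A and COX5B r = 0.851. ANB1 ran most like HAP1 (r = 0.852) and opposite to CYC1 (r = -0.555), and its r with ROX1 was 0.157. Among all other tested genes, the patterns nearest to CYC7 were those of RCN2 (r = 0.983) and COA2 (r = 0.976), and nearest to COX5B those of SCS7 (r = 0.988) and PHO8 (r = 0.978). COA2 encodes an assembly factor of cytochrome c oxidase, RCN2 a calcineurin regulator and SCS7 a sphingolipid hydroxylase. COX5A was nearest to APD1 (r = 0.991) and to the oxidase subunit gene COX8 (r = 0.989). CYC1 was nearest to YEL073C (r = 0.937) and ERG9 (r = 0.915), ANB1 to RRP45 (r = 0.977) and CST26 (r = 0.962), PET9 to EDS1 (r = 0.979) and YER152C (r = 0.975), HAP1 to PRS2 (r = 0.941) and PRP18 (r = 0.934), and ROX1 to IZH3 (r = 0.953) and SAN1 (r = 0.945).

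The genes beside CYC1 and CYC7 were looked at after the values were seen. In assembly R64, ANB1 and CYC1 are adjacent genes on opposite strands and start from the same intergenic region. In YJM975 ANB1 was higher and CYC1 lower in ethanol than in glycerol, at 3.32 ± 0.13 and -2.14 ± 0.048, and in RM11 the signs were the reverse, at -0.54 ± 0.13 and 0.18 ± 0.048. CYC7 lies beside UTR4, on the opposite strand, which encodes an enzyme of methionine salvage. UTR4 averaged 36.04 TPM in YJM975 and 20.96 TPM in RM11 in ethanol, 33.4 and 23.2 TPM in glycerol, and 168 and 50.8 TPM in glucose. It was higher in YJM975 by 0.76 ± 0.062 in ethanol, 0.51 ± 0.062 in glycerol and 1.71 ± 0.062 (limma adjusted p = 4.66e-14) in glucose, and its r with CYC7 over the 18 libraries was 0.867. UTR2, on the other side of CYC7, had differences of 0.11 ± 0.11 (limma adjusted p = 0.438) in ethanol, -2.19 ± 0.11 (limma adjusted p = 1.67e-12) in glycerol and 0.60 ± 0.11 (limma adjusted p = 5.06e-05) in glucose, and r = 0.207 with CYC7. UTR1, on the other side of CYC1, had differences of 0.038 ± 0.053 (limma adjusted p = 0.580) in ethanol, 0.30 ± 0.053 (limma adjusted p = 3.88e-05) in glycerol and 0.38 ± 0.053 (limma adjusted p = 3.28e-06) in glucose, and r = 0.241 with CYC1. No member overlaps the protein-coding gene or pseudogene next to it on either side in the R64 annotation. Overlap with other features, or with transcripts that R64 does not list, was not checked.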

How the data were processed

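Polyadenylated RNA was sequenced from 18 cultures, 3 in each of 6 groups, and grouped by the sample titles, which also number the replicates. The triplicates are called biological per the labels, and p-values measure the spread between these cultures. The authors deposited TPM values, made with kallisto per the submitters' processing notes. For kallisto the version, settings and transcript set are not stated in the labels or the file header. Each library sums to 1000000 TPM within 1, so no counting interval can be given, and reads of similar transcripts are shared out by likelihood. Members and lists were chosen with earlier results of these data known. Gene names came from the table of assembly R64 of strain S288C, in which 5929 of 6612 transcripts matched and 683 did not. Coding sequences of the isoforms in R64 were aligned globally (Biopython 1.88). Promoter and protein sequences were not analysed here.

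Genes averaging 1 TPM or more were tested with limma (3.58.1, R 4.3.3) on log2(TPM + 1), in 1 fit of 6 group means with 12 residual degrees of freedom, empirical Bayes with trend and Benjamini-Hochberg adjustment over all 6309 genes in each of 13 contrasts. The fit was tested on simulated data in which a small share of genes differed, between the strains in glucose only. No general shift between groups was built in, so that test does not bear on calls that turned with centring. Fold changes on this scale understate changes of low genes. Isoform ratios are of TPM without a pseudocount and were tested by exact two-sided permutation, with strain labels permuted within media (8000 arrangements) or medium labels within strains (400). The design foresaw 4 pairs. HYP2 at 0 left 3, so p-values were adjusted over 3 and 9 tests. Besides the 10 members, the text names for each tested member the 2 genes with the highest Pearson r, genes of lists of up to 8, and of the longer hypoxic list the called gene with the largest change. UTR1, UTR2, UTR4 and YEL034C-A were added after their values were seen. DAN3 could not be matched and DAN1 did not pass the filter. Replicates correlated with r from 0.9945 to 0.9977 across genes, and no libraries were identical. Plots used Python 3.11.15, pandas 2.3.3, NumPy 2.4.6, SciPy 1.17.1 and matplotlib 3.10.9. Alternatives were pseudocounts of 0.1 and 5, no filter or 10 TPM, centring on the median gene, rescaling with the 50 most abundant genes removed, fitting only the compared groups, the replicate number as a block, a pseudocount of 1 TPM in the ratio, no variance trend and leaving out each library. Fits without the glucose libraries were added after the data were seen.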

Additional observations from a re-analysis of the deposited data

Results flagged for a closer look

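For the following genes the medium effect in YJM975 was not that in RM11, by a limma test of the difference between both effects (log2 ± SE, adjusted p below 0.05). Most genes in the table met the same test, 76.8% for ethanol minus glucose, 78.3% for glycerol minus glucose and 80.8% for ethanol minus glycerol. CYC7 differed by -5.08 ± 0.078, -2.57 ± 0.078 and -2.52 ± 0.078 in that order, COX5B by -2.40 ± 0.089, -1.78 ± 0.089 and -0.62 ± 0.089, and CYC1 by -1.55 ± 0.068, 0.76 ± 0.068 and -2.31 ± 0.068. ANB1 differed by 0.59 ± 0.19, -3.28 ± 0.19 and 3.86 ± 0.19, and ROX1 by 0.60 ± 0.10, -1.44 ± 0.10 and 2.04 ± 0.10. For ethanol minus glucose both calls were lost with centring on the median gene (0.11 and 0.12, limma adjusted p = 0.615 and 0.262). PET9 lay at -0.18 there and was not called either, and HAP1 lay at -0.43. COX5A differed by -1.08 ± 0.061 for ethanol minus glucose and -1.17 ± 0.061 for ethanol minus glycerol. PET9 differed by 0.29 ± 0.13 for ethanol minus glucose, with an adjusted p of 0.0460 that passed the threshold in 9 of the 18 fits without 1 library, and by 0.49 ± 0.13 for glycerol minus glucose. HAP1 differed by -0.55 ± 0.095 for glycerol minus glucose and 0.59 ± 0.095 for ethanol minus glycerol, of which the second turned to -0.15 with centring on the median gene. For ethanol minus glycerol ANB1 had the largest value and CYC7 the lowest among the 8. These comparisons share libraries with each other.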

How the results depend on the processing

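Counts of called members in either direction together stayed within 1.5 times of the main count in all 13 comparisons under every alternative run. By direction they did not: with centring on the median gene the strain counts in glucose were 6 higher and 1 lower, against 3 and 2 without it, and the differences of changes for ethanol minus glucose 0 and 5, against 3 and 4. Centring on the median gene turned the sign, between the strains, of PET9 (0.48) and HAP1 (0.18) in glycerol, of CYC1 (0.072), ANB1 (0.40) and ROX1 (0.37) in glucose, and of HAP1 (0.22) and ROX1 (0.019) on average. Of these, CYC1 in glucose and ROX1 on average were not called with centring. Between media it turned HAP1 (-0.34) for ethanol minus glucose and COX5B (-0.040) and ROX1 (-0.30) for ethanol minus glycerol in YJM975, and in RM11 HAP1 for glycerol minus glucose (-0.22) and CYC7 (0.021) and HAP1 (0.31) for ethanol minus glycerol. Differences of changes that turned were PET9 (-0.18) and HAP1 (-0.43) for ethanol minus glucose and HAP1 (-0.15) for ethanol minus glycerol. The PET9 call for ethanol minus glucose was lost, as were those of ANB1 and ROX1 (0.11 and 0.12). Rescaling without the 50 most abundant genes turned PET9 in glycerol between the strains (0.15). In each of these cases the cause was not tested. With a pseudocount of 1 in the ratio, AAC3 to PET9 passed the test at 0.47 for the strains, 1.09 for ethanol minus glucose and 1.11 for glycerol minus glucose, since 1 TPM exceeds AAC3. Leaving out 1 library moved its ethanol minus glucose value between 0.57 and 1.11 and its ethanol minus glycerol value between -0.36 and 0.17, with RM11 ethanol replicate 1 at the upper end of both. Replicate numbers did not pair the libraries (r of same-numbered deviations from -0.217 to 0.159, mean -0.0153, n = 45). For the ratios, the replicate block paired libraries by number and flipped the signs of their differences. Between media this can give no exact sign-flip p under 0.0313. The medium differences of CYC7 to CYC1 (-2.70, -2.11 and -0.59) and of COX5B to COX5A for ethanol minus glycerol (0.59) all lay at that floor. Their adjusted p was 0.0703, so this setting could not show whether these results hold. In limma the replicate block ended the PET9 calls between the strains in glycerol (-0.20, adjusted p = 0.0580) and for the difference of changes, ethanol minus glucose (0.29, adjusted p = 0.0618), and changed no other call. The PET9 strain call in glycerol was also lost with no filter, with fits on the compared groups, with no variance trend and without the glucose libraries (adjusted p from 0.0502 to 0.0714), and without any YJM975 glycerol library, RM11 glycerol replicate 2 or 3 or RM11 glucose replicate 2. Of 1872 member values without 1 library, 1856 kept their direction and call and 16 lost the call. The reads behind AAC3, below 1 TPM throughout, are unknown.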
